A study of Mus musculus with 12 samples.

Results

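The genes described here are 9 genes of megakaryocytes and platelets, chosen by name: the chemokines Ppbp and Pf4, the integrin chains Itga2b and Itgb3, and the surface glycoproteins Gp1ba, Gp1bb, Gp5, Gp9 and Gp6. Gp1ba was not analysed here. The other 8 were read by 10 probe sets that carry 1 gene symbol, among 18193 genes and 45037 probe sets in all. A probe set is a group of array probes for 1 transcript, and for the gene tests each gene was read by its probe set with the highest mean.

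In all, 4 groups of 3 arrays were compared: Hypb-/- (knockout) and Hypb+/+ (wild type) yolk sacs at E10.5, and knockout and wild type yolk sacs at E9.0, where E stands for days of embryonic life. All came from mice of the 129Sv/C57BL/6 strain, and 1 array read the RNA of 4 pooled yolk sacs of 1 genotype. Hypb is an older name of Setd2, which encodes the histone methyltransferase that trimethylates lysine 36 of histone H3 on transcribed genes. Every value is that of whole yolk sac, with no sorting of cells.

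The yolk sac makes the first blood of the embryo: primitive red cells, macrophages and the first megakaryocytes, which shed platelets. Ppbp and Pf4 are CXC chemokines stored in platelet alpha granules. The GPIb-IX-V complex, built from Gp1ba, Gp1bb, Gp9 and Gp5, binds von Willebrand factor; Gp6 is a collagen receptor that signals through Fcer1g; and Itga2b pairs with Itgb3 to form the fibrinogen receptor. Itga2b is also known from early blood progenitors, Itgb3 pairs with Itgav in other cells, and Pf4 is also known from some macrophages.

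Values are log2 expression values made by RMA, a method that puts all arrays on a common distribution, so a difference of 1 is 2-fold. They give no depth, and the number of arrays limits the precision: the median standard error (SE) of a log2 change was 0.126. A gene is called where its limma p, adjusted by Benjamini-Hochberg over all 18193 genes of that comparison, is under 0.05. For Setd2 the knockout arrays all lay below the wild type arrays of their stage, averaging 7.88 ± 0.16 in knockout and 8.71 ± 0.06 in wild type at E10.5, and 7.69 ± 0.26 in knockout and 8.98 ± 0.13 in wild type at E9.0 (SD, n = 3 each). The yolk sac markers Afp, Ttr, Hba-x and Hbb-bh1 lay between 13.63 and 14.49 on all 12 arrays. Control probe sets set replicate 3 apart from replicates 1 and 2 in both genotypes, though not by the same measures at each stage. The Dap 3′ minus 5′ difference was higher in replicate 3 at both stages. The BioC minus BioB difference stood apart at E9.0 (-0.10 in knockout and -0.02 in wild type). At E10.5 it did not (1.53 and 1.48). Values within replicates 1 and 2 are therefore given where they matter. The labels name no such batch.

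The promoters of the 2 chemokine genes are shown because they are the members that moved most, and because Ppbp and Pf4 are next to each other on chromosome 5; Ppbp was to be shown as the member called at E10.5, and Pf4 was added after its values were seen. Each sequence runs 5′ to 3′ on the plus strand, from 250 bases before the gene start to 50 after it, in RefSeq's GRCm38.p6. Capitals mark AGATAA, the motif bound by GATA factors, and GGAAG, the core bound by ETS factors, with either motif read on both strands (TTATCT and CTTCC on the other strand).
Ppbp, chr5:90768268-90768567: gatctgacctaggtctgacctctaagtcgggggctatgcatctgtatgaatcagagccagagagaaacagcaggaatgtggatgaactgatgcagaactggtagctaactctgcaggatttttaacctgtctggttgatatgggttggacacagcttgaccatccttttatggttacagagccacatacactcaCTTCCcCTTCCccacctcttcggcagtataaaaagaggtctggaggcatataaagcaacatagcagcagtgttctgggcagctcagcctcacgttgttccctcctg
Pf4, chr5:90772185-90772484: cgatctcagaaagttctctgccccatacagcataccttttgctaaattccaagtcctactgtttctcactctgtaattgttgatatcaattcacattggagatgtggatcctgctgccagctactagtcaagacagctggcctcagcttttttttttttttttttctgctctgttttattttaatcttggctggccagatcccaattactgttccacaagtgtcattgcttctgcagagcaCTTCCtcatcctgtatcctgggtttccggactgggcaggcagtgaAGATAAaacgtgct
The Ppbp window held GGAAG 2 times and AGATAA 0 times, and the Pf4 window held each motif 1 time. Promoters were found for 8 of the 9 genes, all but Itgb3. GGAAG was in 8 of the 8 windows, against 71.4% of 32851 mouse promoters of that length, and AGATAA in 3 (Pf4, Gp5 and Gp6), against 11.2%. Such matches describe letters and not sites of binding.

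The platelet chemokine Ppbp was lower in knockout than in wild type yolk sacs at E10.5, while at E9.0 both genotypes lay in the same low range. At E10.5 its log2 value was 6.19, 7.30 and 6.86 on the 3 knockout arrays, against 8.89, 8.66 and 8.75 on the 3 wild type arrays. Every knockout array lay below every wild type array, and the knockout arrays were spread more widely (SD 0.56 against 0.12). The change was -1.98 (SE 0.22; 3.95-fold lower; limma adjusted p = 0.000241), the 10th largest fall of 18193 genes. At E9.0 Ppbp read 3.59, 3.48 and 3.51 on the knockout arrays and 3.29, 3.77 and 3.56 on the wild type arrays. These groups overlapped, and the difference was -0.01, with a 95% interval from -0.48 to 0.45 (limma adjusted p = 0.993). All 6 values lay below the array medians of 5.27 to 5.34 and are not shown to be above background, so a difference at E9.0 may not have been detectable. In whole tissue, fewer cells of a type and less RNA per cell cannot be told apart.

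The E10.5 fall of Ppbp kept its call in each of the 12 fits that left out 1 array, with changes from -2.24 to -1.69, and it was -2.03 within replicates 1 and 2 (limma adjusted p = 0.0107) and -1.89 in replicate 3. The change at E10.5 was more negative than that at E9.0 by 1.97 (SE 0.31), and limma called this difference between stages (value -1.97; adjusted p = 0.0244). It was not called over all probe sets (adjusted p = 0.0602), and the gene call was lost in 7 of the 12 fits without 1 array: any of the 3 E9.0 knockout arrays, E9.0 wild type replicate 1, or any of the 3 E10.5 wild type arrays. The adjusted p then ran from 0.0584 to 0.0918, with the size between -2.02 and -1.85, and within replicates 1 and 2 it was 0.120.

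**Figure D1:**
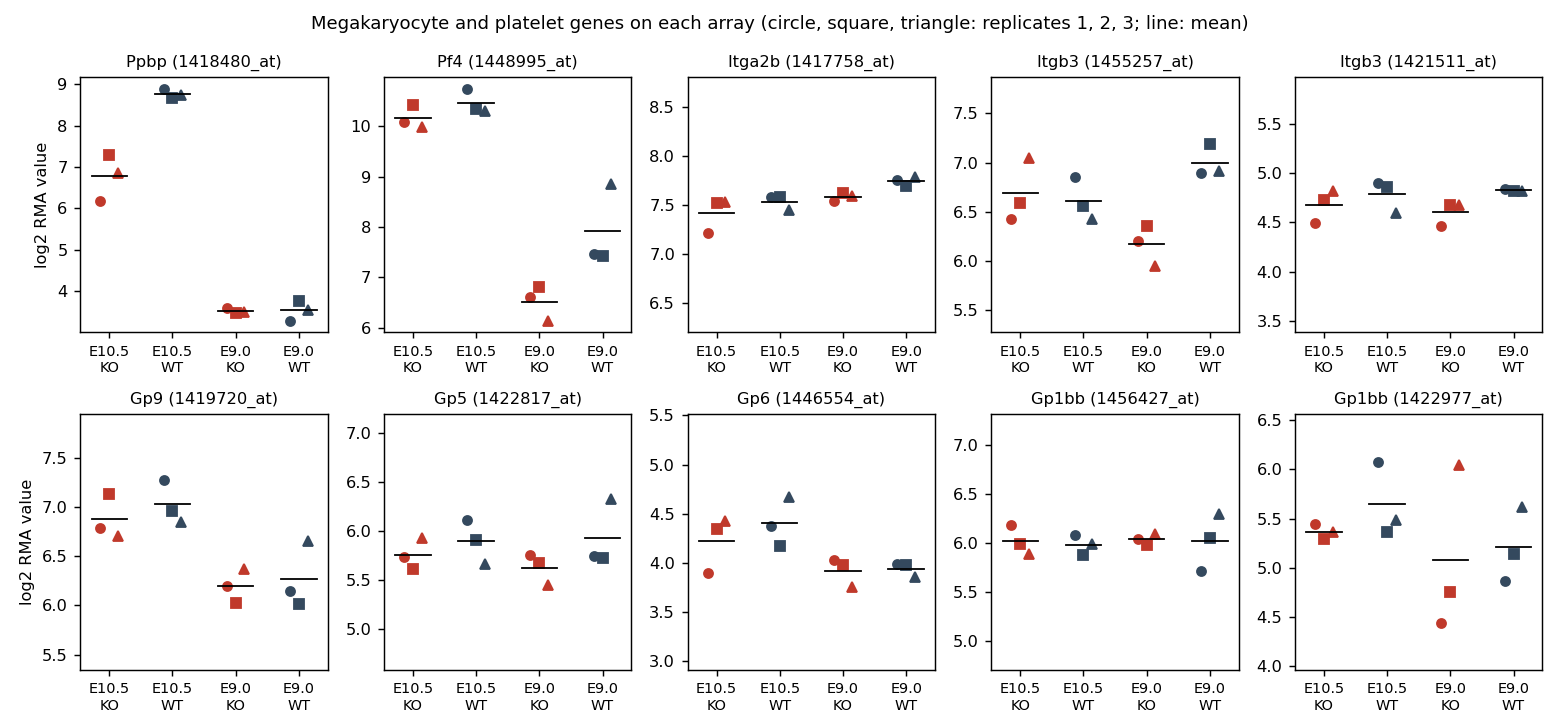
Log2 RMA value (y axis) of the 10 member probe sets on each array, knockout (KO) in red and wild type (WT) in dark blue, with the group mean as a line and the same span of 2.6 log2 units in every panel but those of Ppbp and Pf4. The 3 E10.5 KO arrays of Ppbp sit between 6.19 and 7.30, below the WT arrays at 8.66 to 8.89, and Pf4 is lower on the E9.0 KO arrays, at 6.14 to 6.80, than on the WT arrays, at 7.43 to 8.86.

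For Pf4, the other platelet chemokine, the larger change was at E9.0, where values were lower in knockout but did not pass the test. Its difference between stages was not called. At E10.5 Pf4 read 10.09, 10.42 and 9.99 on the knockout arrays and 10.74, 10.33 and 10.29 on the wild type arrays, which overlapped. That change was -0.29 (SE 0.32; limma adjusted p = 0.705), with a 95% interval from -0.97 to 0.40. At E9.0 Pf4 read 6.61, 6.80 and 6.14 on the knockout arrays, against 7.46, 7.43 and 8.86 on the wild type arrays. The groups did not overlap, and wild type replicate 3 stood above the other two. The E9.0 change was -1.40 (SE 0.32; 2.64-fold lower), the 9th largest fall of all genes, with a limma adjusted p of 0.0555. With the replicate 3 batch as a block the adjusted p was 0.0443, but within replicates 1 and 2 the change was -0.74 (adjusted p = 0.0946), and in replicate 3 it was -2.72. The difference of the knockout effect between stages was 1.11 for Pf4 (SE 0.45; limma adjusted p = 0.497).

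Of the integrin chains of the fibrinogen receptor, 1 was called. Itgb3, the beta chain, was lower in knockout at E9.0 by its brighter probe set: 6.20, 6.35 and 5.95 on the knockout arrays, against 6.89, 7.19 and 6.91 on the wild type arrays. The groups did not overlap, and the change was -0.83 (SE 0.17; 1.78-fold lower; limma adjusted p = 0.0370). At E10.5 Itgb3 read 6.42, 6.59 and 7.05 in knockout and 6.85, 6.56 and 6.43 in wild type, which overlapped (change 0.07; adjusted p = 0.872). Its other probe set read 4.46, 4.68 and 4.68 in knockout and 4.84, 4.82 and 4.82 in wild type at E9.0. There the change was smaller, at -0.22 (SE 0.12; adjusted p = 0.616 over all probe sets).

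The E9.0 call of Itgb3 sat close to the threshold. It was lost without E9.0 knockout replicate 1 (adjusted p = 0.149) or 3 (0.122), without E9.0 wild type replicate 1 (0.0926), 2 (0.167) or 3 (0.0702), and without E10.5 wild type replicate 2 (0.0588). It was also lost over all probe sets (0.0671), with the mean of both probe sets (-0.53; 0.0722), with the E9.0 arrays alone (0.0538) and within replicates 1 and 2 (0.0669), whereas the change stayed between -0.92 and -0.72 in the fits without 1 array. Itga2b, the alpha chain found on megakaryocytes and early progenitors, read 7.22 to 7.53 in knockout and 7.45 to 7.58 in wild type at E10.5. At E9.0 Itga2b read 7.54, 7.62 and 7.59 in knockout and 7.76, 7.70 and 7.79 in wild type. These E9.0 groups did not overlap, but the change was -0.17 (SE 0.10; limma adjusted p = 0.580).

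The glycoprotein genes gave no call between genotypes at either stage. Gp9, a chain of the von Willebrand factor receptor, read 6.79, 7.13 and 6.71 in knockout and 7.28, 6.96 and 6.85 in wild type at E10.5, a change of -0.15 (95% interval -0.54 to 0.23). Gp5, which joins that receptor, changed by -0.14 at E10.5 (-0.50 to 0.23) and by -0.30 at E9.0 (-0.67 to 0.06). Gp6 changed by -0.18 at E10.5 (-0.52 to 0.15) and by -0.02 at E9.0 (-0.35 to 0.31). Gp1bb changed by 0.04 at E10.5 (-0.26 to 0.33) and by 0.01 at E9.0 (-0.28 to 0.31). A further Gp1bb probe set varied widely among the E9.0 knockout arrays, which read 4.44, 4.75 and 6.05. A probe set annotated to both Septin5 and Gp1bb also read 7.30 on E9.0 knockout replicate 3, against 4.53 and 4.40 on the other two, and was not assigned to either gene.

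Over the 8 measured genes, 1 was called lower in knockout at E10.5 (Ppbp) and 1 at E9.0 (Itgb3), with 0 called higher at either stage. Among all genes the share called in either direction was 7.28% at E10.5 and 1.18% at E9.0, and the share called lower was 3.16% and 0.632%. The median change of the 8 was -0.14 at E10.5 and -0.12 at E9.0, beside -0.01 and -0.01 over all genes. Knockout and wild type arrays did not overlap for 1 of the 8 at E10.5, beside 22.8% of all genes, and for 3 of the 8 at E9.0 (Pf4, Itgb3 and Itga2b), beside 18% of all genes. For the difference between stages 1 of the 8 was called (Ppbp), beside 0.187% of all genes.

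**Figure D2:**
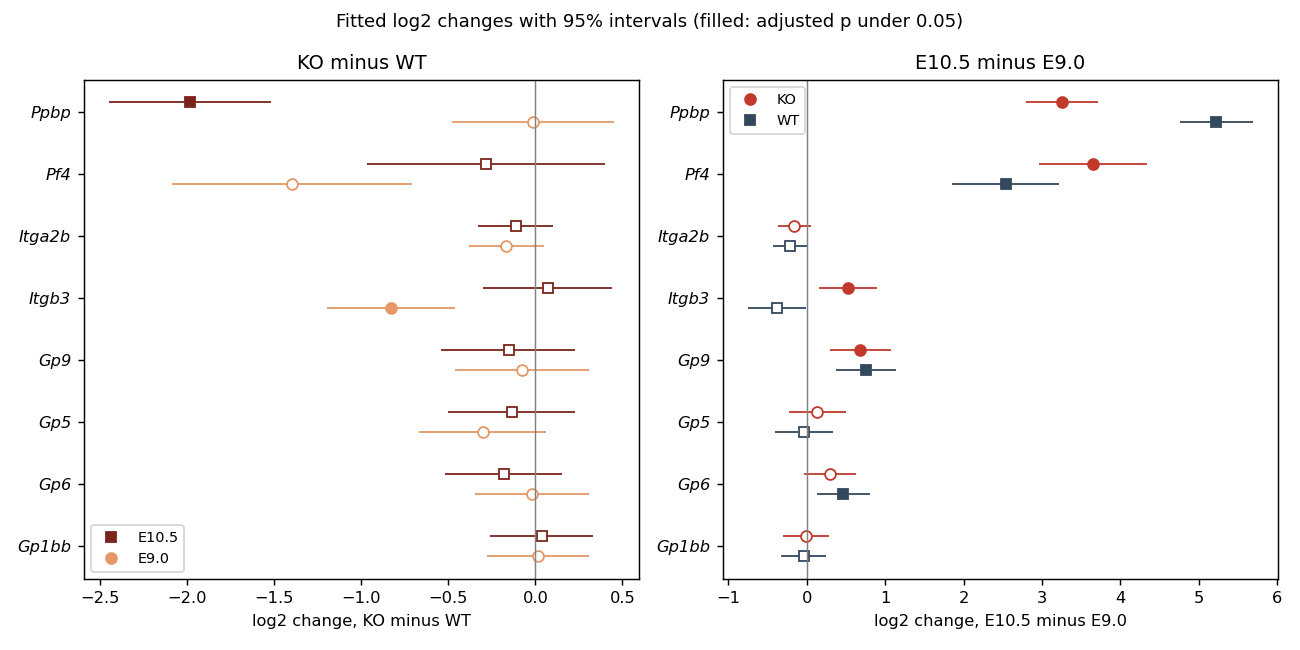
Fitted log2 change of each gene (x axis) with its 95% interval, filled where the adjusted p is under 0.05: knockout minus wild type at each stage (left) and E10.5 minus E9.0 for knockout and for wild type (right). Ppbp at -1.98 and Itgb3 at -0.83 are the filled points on the left, and the rises of Ppbp and Pf4, from 2.54 to 5.23, stand apart on the right.

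With age of the yolk sac both chemokine genes rose steeply in both genotypes. In knockout Ppbp averaged 6.78 ± 0.56 at E10.5 and 3.53 ± 0.06 at E9.0 (SD, n = 3 each), a rise of 3.26 (SE 0.22; limma adjusted p = 1.61e-06). In wild type Ppbp averaged 8.77 ± 0.12 at E10.5 and 3.54 ± 0.24 at E9.0, a rise of 5.23 (SE 0.22; adjusted p = 2.95e-08). As measured, that was the largest rise of all 18193 genes in wild type, and the knockout value ranked 9th. Since the E9.0 values of Ppbp are not shown to be above background, both rises may be understated. Pf4 averaged 10.17 ± 0.23 at E10.5 and 6.52 ± 0.34 at E9.0 in knockout, a rise of 3.65 (SE 0.32; adjusted p = 1.40e-05) that ranked 2nd. In wild type Pf4 averaged 10.45 ± 0.25 at E10.5 and 7.92 ± 0.82 at E9.0, a rise of 2.54 (SE 0.32; adjusted p = 0.000168) that ranked 35th. These rises kept their calls without any 1 array. The wild type rise of Pf4 was 3.09 within replicates 1 and 2 but 1.43 in replicate 3. In replicate 3 the knockout rise of Pf4 was 3.85. The Ppbp groups thus stood in the order E10.5 wild type, E10.5 knockout and then both E9.0 groups, which did not differ beyond their spread. For Pf4 both E10.5 groups overlapped at the top, with E9.0 wild type and then E9.0 knockout below them.

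The surface receptor genes moved little with stage. Gp9 rose by 0.68 in knockout (SE 0.18; limma adjusted p = 0.0151) and by 0.76 in wild type (SE 0.18; adjusted p = 0.00883). The knockout call was lost without replicate 2 of the E10.5 (0.55; adjusted p = 0.0688) or of the E9.0 arrays (0.59; 0.0623), and in wild type replicate 3 the difference was 0.19. Itgb3 rose by 0.52 in knockout (adjusted p = 0.0430), while in wild type its change was -0.38 (adjusted p = 0.135); the difference between these was 0.90 (adjusted p = 0.201). Gp6 rose by 0.46 in wild type (adjusted p = 0.0472), and in knockout its change was 0.30 (adjusted p = 0.189); the difference between these was -0.16 (adjusted p = 0.925). The Itgb3 call was lost in 7 of the 12 fits without 1 array, namely E10.5 knockout replicates 2 and 3, E9.0 knockout replicates 1 and 3, E10.5 wild type replicate 2 and E9.0 wild type replicates 1 and 3. The Gp6 call was lost in 8, namely E10.5 knockout replicate 2, E9.0 knockout replicates 1 and 2, E10.5 wild type replicates 1 and 3, and each E9.0 wild type array. Their adjusted p then ran up to 0.153 for Itgb3, where the change fell to 0.34, and up to 0.190 for Gp6, and within replicates 1 and 2 the changes were 0.23 for Itgb3 and 0.29 for Gp6. Without E10.5 knockout replicate 1 the knockout change of Gp6 passed the test (0.46; adjusted p = 0.0436). The other Itgb3 probe set changed by 0.07 in knockout and by -0.04 in wild type, and was not called. Tested over all probe sets, neither the knockout rise of Itgb3 (limma adjusted p = 0.0668) nor the wild type rise of Gp6 (0.0702) was called. Itga2b, Gp5 and Gp1bb were not called, with changes from -0.21 to 0.13. In all, 4 of the 8 genes were called in knockout, where 23.6% of all genes were called, and 4 of the 8 in wild type, where 22.2% were called.

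Ppbp and Pf4 were also closer to each other than to any other member, by the root mean square difference of their log2 values over the 12 arrays once each gene's mean was taken off. That difference was 1.05 between the 2 chemokines, 1.31 from Pf4 to Gp9 and 1.90 from Ppbp to Gp9. The smallest difference of any pair was 0.22, between Gp1bb and Itga2b, both of which varied little. Over all genes the patterns nearest to Ppbp were those of Serpina1c (0.59), F13b (0.67), Plet1os (0.74), Sgk2 (0.78) and Alb (0.82). Alb, for example, averaged 5.83 in knockout and 8.04 in wild type at E10.5, and 4.28 in knockout and 4.22 in wild type at E9.0. Nearest to Pf4 were Rgs18 (0.49), Ms4a6b (0.62), Clca1 (0.62), C1qb (0.63) and Itih2 (0.64). Rgs18 averaged 6.96 in knockout and 7.21 in wild type at E10.5, and 4.20 in knockout and 5.23 in wild type at E9.0. Nearest to Gp9, whose own SD was 0.44, were Uevld, Cox20, Pdik1l, Smim8 and Nat8f1, all within 0.16. Cxcl5, the chemokine gene on the other side of Ppbp in RefSeq and named here after its values were seen, lay between 2.36 and 2.93 on all 12 arrays.

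Further platelet genes, 90 by name with 84 measured, were grouped by role. At E10.5 in knockout 11 of the 84 were called higher and 2 lower (15.5%, beside 7.28% of all genes), with a median change of 0.10. At E9.0, 1 was called higher and 0 lower (1.19%, beside 1.18% of all genes), with a median of 0.02. The gene called at E9.0 was Fcer1g, the signalling partner of Gp6, which is shared with Fc receptors of myeloid cells. Fcer1g read 7.39, 7.41 and 7.62 in knockout, against 6.10, 6.32 and 6.12 in wild type, a change of 1.29 (SE 0.14; limma adjusted p = 0.00217). At E10.5 it read 8.70, 8.76 and 8.24 in knockout, against 7.21, 7.03 and 7.33 in wild type, a change of 1.38 (adjusted p = 0.000160). The knockout arrays lay above the wild type arrays at both stages, while Gp6 itself was not called.

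Among receptor and signalling genes at E10.5, 4 of 29 were called higher and 1 lower in knockout. Beside Fcer1g, the adaptor gene Lcp2 rose by 0.90 and Syk, a kinase that docks on Fcer1g, by 0.42. F2r, a thrombin receptor known in mouse mainly outside platelets, rose by 0.71. Rasgrp2, the activator of Rap1 upstream of the fibrinogen receptor, fell by 0.96 (limma adjusted p = 0.0143). Of the granule and secretion genes 4 of 24 were called higher and 1 lower. F13a1, the factor XIII A chain of platelets and macrophages, read 7.87, 8.17 and 7.89 in knockout, against 6.46, 6.90 and 6.62 in wild type, a rise of 1.32 (adjusted p = 0.000247). Vwf, the ligand of the Gp1b complex, made by endothelium and megakaryocytes, read 4.84, 4.28 and 4.98 in knockout, against 5.75, 6.13 and 5.80 in wild type, a fall of 1.19 (change -1.19; adjusted p = 0.00880). The growth factor gene Pdgfa (0.41), Timp3 (0.76), which encodes a protease inhibitor, and Angpt1 (0.76), which encodes a ligand of Tek, rose. Of the 14 cytoskeleton genes 2, Flna (0.53) and Tpm4 (0.37), which encode actin-binding proteins, rose as well. Of the 17 transcription factor genes 1 rose, the ETS factor gene Fli1 (1.04; adjusted p = 0.0208).

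Of these 13 calls, those of Fcer1g, Lcp2, F2r, F13a1 and Vwf held in each of the 12 fits without 1 array. The count was 6 without E10.5 knockout replicate 1 and 5 without E10.5 wild type replicate 2. Rasgrp2 was lost without that wild type array (-0.91; adjusted p = 0.0620). Fli1 was lost without it (0.0907), without E10.5 wild type replicate 3 (0.0638) and without E10.5 knockout replicate 1 (0.0565). Timp3 was lost in 2 fits, Angpt1 in 3, Syk and Flna in 4 each, Tpm4 in 6 and Pdgfa in 7, each time including that wild type array. Within replicates 1 and 2, Rasgrp2 (adjusted p = 0.0523), Syk (0.0798), Pdgfa (0.0961), Flna (0.0772) and Tpm4 (0.0567) were not called. Further probe sets of 5 of these genes were not called, with changes of -0.32 for Lcp2, 0.38 for Fli1, 0.09 for Pdgfa, -0.22 and -0.02 for Rasgrp2, and 0.16 and 0.17 for Syk, although another of Rasgrp2 (-1.10) and another of Syk (0.55) were, and 1 of the 3 further probe sets of Timp3 was not (0.71). For the difference of the knockout effect between stages 0 of the 84 were called by limma, beside 0.187% of all genes.

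**Figure D3:**
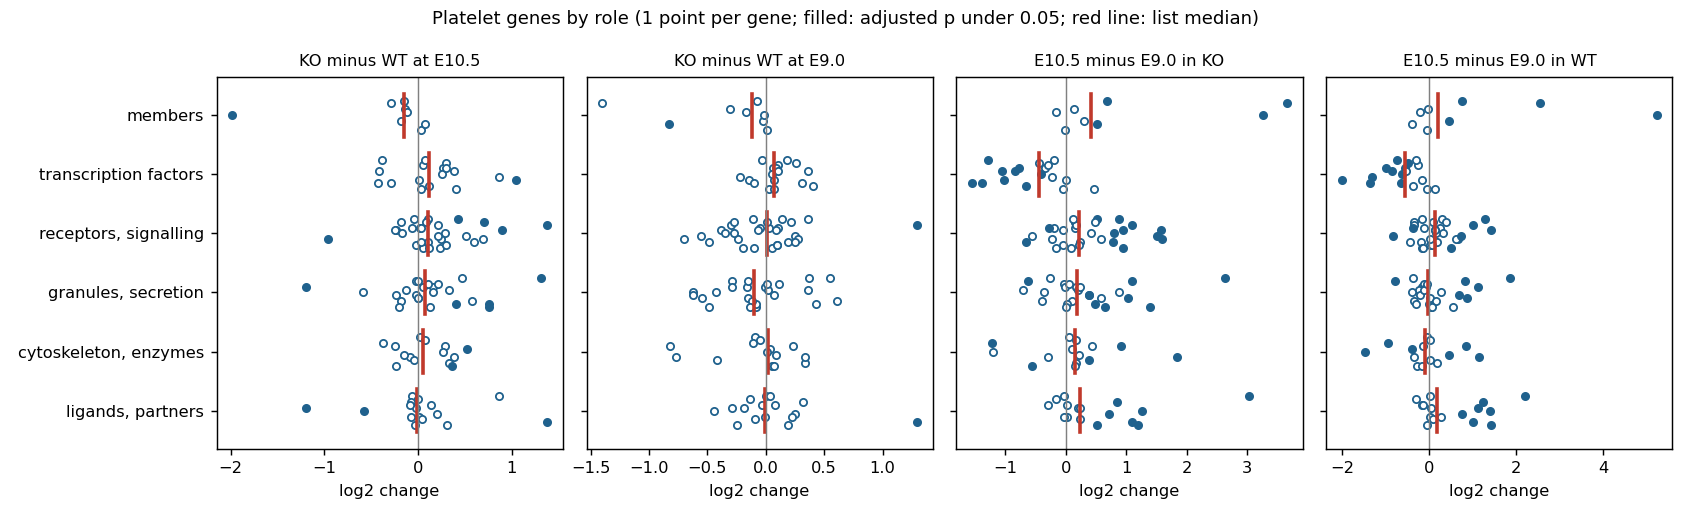
Log2 change (x axis) of each gene of the 8 measured members and of the 5 lists of other platelet genes and their ligands, with 1 panel per comparison, filled points for calls and a red line at the list's median. In the stage panels the members Ppbp and Pf4 lie far to the right, and the transcription factor genes lie mostly left of 0.

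Most transcription factor genes listed for megakaryocytes fell with stage while the chemokine genes rose. In knockout 9 of 17 were called lower at E10.5 than at E9.0 and 0 higher (52.9%, beside 23.6% of all genes), with a median of -0.44. In wild type 10 of 17 were called lower and 0 higher (58.8%, beside 22.2%), with a median of -0.55. Gata1, which red cells also use, read 6.99, 7.88 and 7.50 at E10.5 and 8.72, 8.56 and 8.96 at E9.0 in knockout, a change of -1.29 (limma adjusted p = 0.000731). Zfpm1, its cofactor gene, changed by -1.54, Tal1 by -1.05 and Gfi1b by -0.84 in knockout. In wild type Gfi1b changed by -0.85, Nfe2 by -0.98 and Fli1 by -1.99 (limma adjusted p = 0.000136). A further probe set of Fli1 changed by -0.68 and was not called. Falls with stage were not particular to this list. Of 17 measured primitive red cell genes 8 were called lower and 1 higher in knockout (median -0.69). In wild type 0 of them were called lower and 1 higher (0.05). Of 18 endothelial genes 1 was called lower and 3 higher in knockout (-0.245). In wild type 9 of them were called lower and 1 higher (-0.57).

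Of the receptor and signalling genes 10 of 29 were called higher and 2 lower with stage in knockout (41.4%, beside 23.6% of all genes), and 6 higher and 2 lower in wild type (27.6%, beside 22.2%). Clec1b, the podoplanin receptor gene of platelets, changed by 1.57 in knockout and rose by 1.42 in wild type. Plek, which encodes a protein kinase C substrate, rose by 1.50 and the scavenger receptor gene Cd36 by 1.60 in knockout, and the tetraspanin gene Cd9 rose by 1.29 in wild type. Of the granule genes 7 of 24 were called higher and 1 lower in knockout (33.3%), and 5 higher and 1 lower in wild type (25%), where the share was near that of all genes. F13a1 rose by 2.63 in knockout and by 1.87 in wild type, and Mmrn1, which encodes multimerin, by 1.09 in knockout and by 0.83 in wild type, though a further Mmrn1 probe set changed by 0.14 and 0.07. Vwf rose by 1.13 in wild type (adjusted p = 0.00427) and was not called in knockout, and this difference was not called. Of the 14 cytoskeleton and enzyme genes 3 were called higher and 2 lower in knockout (35.7%), and 3 higher and 3 lower in wild type (42.9%). The lipoxygenase gene Alox12 rose by 0.91 in knockout and by 0.85 in wild type, though a further Alox12 probe set changed by 0.08 and 0.12 and was not called.

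Of the genes for ligands and partners of these receptors, 7 of 16 were called higher with stage in each genotype and 0 lower (43.8%, beside 23.6% of all genes in knockout and 22.2% in wild type), with a median of 0.23 in knockout and 0.19 in wild type. The fibrinogen gamma chain gene Fgg, whose product binds the Itga2b and Itgb3 pair, rose by 1.20 in knockout and by 1.42 in wild type, and vitronectin, Vtn, by 3.02 in knockout and by 2.20 in wild type. A further Vtn probe set rose by 1.52 in knockout and changed by 0.86 in wild type, where it was not called (adjusted p = 0.141). Between genotypes at E10.5 1 of the 16 was called higher, Fcer1g, and 2 lower, Vwf and the prothrombin gene F2 (-0.58; limma adjusted p = 0.0473). The F2 call was lost in 9 of the 12 fits without 1 array, and its adjusted p then ran up to 0.185 without E10.5 knockout replicate 1. Cxcr2, the chemokine receptor that Ppbp is known to act on, was not called in any comparison and lay between 3.96 and 4.54 on all 12 arrays; it was named after its values were seen.

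Markers of other cells moved beside these genes at E10.5, and their part in the results was not tested. The 17 measured genes of primitive red cells had a median change of -0.46 in knockout at E10.5, with 0 of 17 above 0 and 2 called lower (11.8%, beside 7.28% of all genes). Both calls, Epb42 and Rhd, were lost without E10.5 knockout replicate 1 (adjusted p = 0.0728 and 0.130), without any 1 of the E10.5 wild type arrays, and within replicates 1 and 2 (0.121 and 0.158). Their mean log2 value was 8.62, 9.55 and 9.16 on knockout replicates 1, 2 and 3, against 9.52 to 9.70 on the wild type arrays, and the summed linear signal was 51094 to 62406, against 63984 to 65413. Knockout replicate 1, lowest in this list, was also lowest in Ppbp at 6.19, and replicate 2, highest in the list, was highest in Ppbp at 7.30. Pf4 had another order, with replicate 3 lowest at 9.99 and replicate 2 highest at 10.42. An order of 3 arrays says little, and a link between these values was not tested. At E9.0 the red cell list had a median of 0.07 with 0 called. On the scale used no gene is at 0, and the lowest value in the table was 2.03.

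Macrophage and myeloid genes rose with stage like Pf4. In knockout 14 of 15 were called higher (93.3%, beside 23.6% of all genes), and in wild type 12 of 15 (80%, beside 22.2%). Their mean log2 values were 7.31 to 7.57 in knockout and 7.14 to 7.22 in wild type at E10.5. At E9.0 they were 6.13 to 6.33 in knockout and 6.18 to 6.29 in wild type. Between genotypes at E10.5, 5 of the 15 were called higher and 2 lower (46.7%, beside 7.28% of all genes). The median was 0.45, with 11 of 15 above 0. The summed linear signal was lower, at 4889 to 5671 in knockout against 6046 to 6811 in wild type. Such a sum leans on bright genes, and most of this gap came from Fcgr3 alone. The Fc receptor gene Fcgr3 read 8.40, 9.22 and 8.54 in knockout, against 10.34, 10.71 and 10.56 in wild type, a change of -1.82 (limma adjusted p = 0.000216), and the granule enzyme gene Mpo rose by 1.56. Within replicates 1 and 2 the E10.5 call of Csf1r, a growth factor receptor gene, was lost (adjusted p = 0.0567). The further probe sets of Csf1r changed by 0.36 and 0.67 at E10.5 and were not called. A further probe set of Cx3cr1, another gene called higher, changed by 0.10 and was not called. At E9.0, 2 of the 15 were called higher, Fcer1g and Cd68, and 1 lower, Tyrobp (20%, beside 1.18% of all genes). The Tyrobp call was lost in 9 of the 12 fits without 1 array, with an adjusted p of up to 0.204, and that of Cd68 in 2. Within replicates 1 and 2 neither was called (0.121 for Tyrobp and 0.103 for Cd68). Of 7 mast cell and basophil genes 1 was called at E10.5 (14.3%, beside 7.28% of all genes), Hdc, which encodes the histamine-forming enzyme. Hdc read 4.81, 5.38 and 5.28 in knockout, against 6.44, 6.96 and 7.24 in wild type, a change of -1.72 (limma adjusted p = 0.000216). That list's summed linear signal was 97 to 123 in knockout and 165 to 223 in wild type, a gap that came almost wholly from Hdc. The median change of the 7 genes was -0.08.

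**Figure D4:**
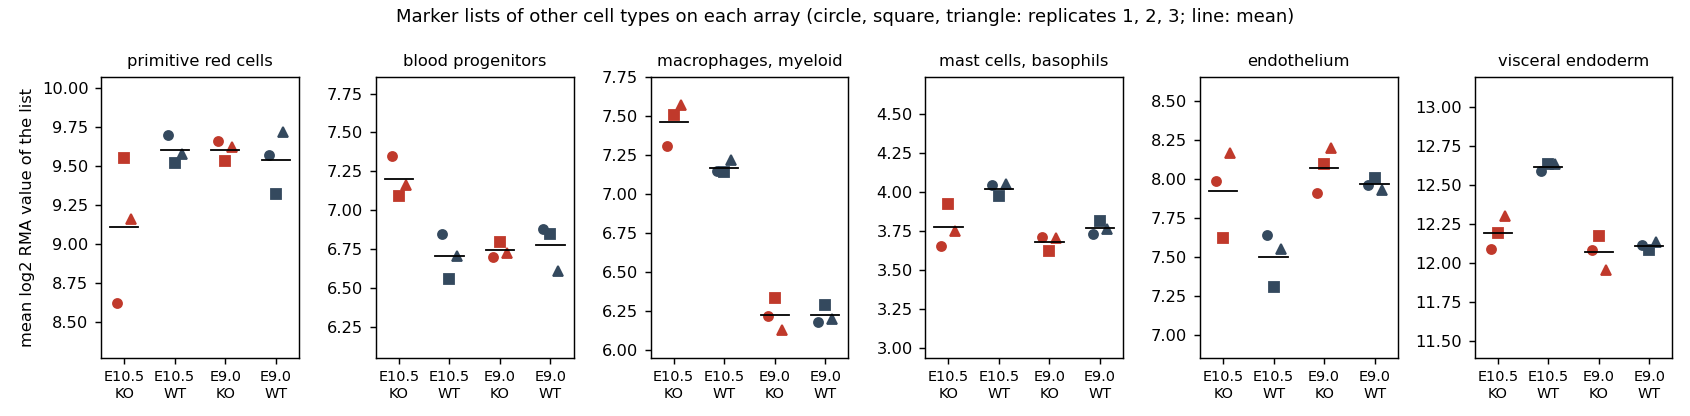
Mean log2 RMA value (y axis, the same span of 1.8 in each panel) of 6 marker lists on each array, knockout (KO) in red and wild type (WT) in dark blue, with the group mean as a line. The E10.5 KO arrays are spread from 8.62 to 9.55 in the red cell list, and both E10.5 groups lie above both E9.0 groups in the macrophage list.

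The other marker lists moved in part as well, and their part in the results was not tested either. Of 10 blood progenitor genes 3 were called higher in knockout at E10.5 (30%, beside 7.28% of all genes), with a median of 0.54 and mean log2 values of 7.09 to 7.35 in knockout against 6.56 to 6.85 in wild type. They were Hlf, Cd93 and Angpt1, and Angpt1 is also in the granule list. Of the 12 fits without 1 array, Hlf was lost in 4, Cd93 in 6 and Angpt1 in 3. The other Hlf probe set (-0.04) and the further Cd93 probe sets (0.04 to 0.62) were not called. Of 18 endothelial genes 3 were called higher, with a median of 0.42, mean log2 values of 7.62 to 8.17 in knockout against 7.31 to 7.64 in wild type, and 17 of 18 above 0. All 3 endothelial calls, Icam2, Robo4 and Pecam1, were lost without any 1 of the E10.5 wild type arrays. Within replicates 1 and 2 the calls of Icam2 (adjusted p = 0.0652) and Robo4 (0.142) were lost, as were those of the progenitor genes Hlf (0.101) and Cd93 (0.140) and the endoderm gene Cubn (0.0541). Of 9 visceral endoderm genes 2 were called lower, Alb and Cubn (22.2%, beside 7.28% of all genes), with a median of -0.25. Mean log2 values were 12.09 to 12.30 in knockout against 12.59 to 12.63 in wild type, a gap to which Alb added most. The Cubn call was lost in 8 of the 12 fits without 1 array. Alb changed by -2.22 (SE 0.22, limma adjusted p = 0.000113). It is one of the genes nearest to Ppbp in pattern, but those were picked on these same arrays. Its similar fall is therefore no separate result. At E9.0, 0 genes of these 3 lists were called by limma. Of 10 mesenchyme genes 3 were called higher at E10.5, with a median of 0.18, and 0 at E9.0.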

How the data were processed

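RNA of pooled mouse yolk sacs was hybridised to Affymetrix mouse expression arrays, 12 in all. The authors deposited log2 values, for which the submitters' processing notes name RMA with a version not given in the sources used here. They cover 45101 probe sets and run from 2.03 to 14.49, with array medians between 5.27 and 5.34. The 64 control probe sets were left out. Probe sets were named by the platform annotation: 34945 had 1 symbol, 932 several and 9160 no entry.

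Each of 18193 genes was represented by its brightest probe set, judged by the mean of the 12 arrays. Group means were estimated jointly from the 12 arrays in limma 3.58.1 (lmFit, eBayes; 8 residual and 4.56 prior degrees of freedom) in R 4.3.3, with 5 comparisons, two-sided tests and Benjamini-Hochberg adjustment over all genes, or over 45037 probe sets for values of single probe sets. The fit was tested on simulated data with independent noise and no batch. That simulation cannot show how the fit handles the replicate 3 difference of these arrays. Replicates are the 3 biological repeats of the design text.

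The members and lists were chosen with earlier results of these data known. Named list genes are those called where 5 or fewer passed, otherwise the 5 with the smallest p, and their values in the other comparisons; pattern neighbours are the 5 nearest genes of the 3 members with the largest SD. Summed linear signal is the sum of 2 to the power of each value. Alternatives were further quantile normalisation, median centring, the mean of a gene's probe sets, leaving out dim genes, an intensity trend, the compared groups alone, replicate and batch blocks, and leaving out arrays. Promoters came from RefSeq's GRCm38.p6. The table of proteins was not used here.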

Additional observations from a re-analysis of the deposited data

Results flagged for a closer look

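The knockout effect on Ppbp differed between stages by -1.97 on the log2 scale (E10.5 change minus E9.0 change; SE 0.31; limma adjusted p = 0.0244), drawn from all 12 arrays. Behind it lie changes of -1.98 at E10.5 and -0.01 at E9.0. The call was lost over all probe sets (adjusted p = 0.0602) and in 7 of the 12 fits without 1 array. At E9.0 Ppbp lay below the array medians and is not shown to be above background, so a change there may not have been detectable. All 3 knockout arrays lay below all 3 wild type arrays at E10.5.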

How the results depend on the processing

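The Ppbp fall at E10.5 and the stage rises of Ppbp and Pf4 kept their direction and their calls at the gene level under every alternative that tested them. Leaving out genes below the median gene removed Ppbp, Gp6, Gp5 and Gp1bb, so 0 members were called at E10.5, 0 for the difference between stages and 2 for the wild type stage comparison. At E9.0 the members called were 0 with the mean of probe sets, 0 with the E9.0 arrays alone, 0 within replicates 1 and 2, and 2 with the batch block. Within replicates 1 and 2, 0 members were called for the difference between stages. The intensity trend called 1 member probe set for that difference, and the batch block 1 at E9.0. Of the other platelet genes, 8 were called at E10.5 with its arrays alone and 4 at E9.0 with the batch block. Whether the replicate numbers mark pairs was not settled. The same-number correlations of deviations were 0.034 to 0.401, and those between different numbers ran from -0.362 to 0.26. With a replicate block 0 members and 4 other platelet genes were called at E9.0, and the E10.5 call of Ppbp was kept (adjusted p = 0.00146).

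Without 1 array, the members called ranged from 0 to 1 at E9.0, 0 to 1 for the difference between stages and 2 to 5 for the knockout stage comparison, and the other platelet genes from 1 to 4 at E9.0 and 5 to 14 at E10.5. Member probe sets ranged from 0 to 1 at E9.0 and for the difference between stages, and from 2 to 4 in each stage comparison.

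Uncalled changes near 0 turned sign. With the mean of probe sets, Gp1bb changed by -0.057 at E9.0, -0.12 at E10.5, -0.065 for the difference, and from stage to stage 0.13 among knockout and 0.20 among wild type arrays, and Itgb3 by -0.017 at E10.5. Within replicates 1 and 2 the E9.0 changes were 0.005 for Ppbp, 0.03 for Gp9 and 0.02 for Gp6, and Itgb3 changed by -0.20 at E10.5. The differences were -0.02 for Gp1bb, -0.32 for Gp5 and -0.06 for Itga2b, and the stage changes in knockout and in wild type 0.075 and 0.095 for Gp1bb and -0.04 and 0.28 for Gp5. Without 1 array the E9.0 changes ran from -0.138 to 0.102 for Ppbp, -0.138 to 0.152 for Gp1bb, -0.208 to 0.117 for Gp9 and -0.075 to 0.065 for Gp6. At E10.5 they ran from -0.043 to 0.102 for Gp1bb and -0.108 to 0.207 for Itgb3, and the differences from -0.115 to 0.175 for Gp1bb, -0.03 to 0.275 for Gp5 and -0.27 to 0.055 for Gp9. The stage changes ran from -0.097 to 0.048 for Gp1bb in knockout, and from -0.192 to 0.098 for Gp1bb and -0.142 to 0.163 for Gp5 in wild type. The cause of these shifts was not tested. RMA values give no detection call, so dim genes such as Gp6, and Ppbp at E9.0, may show compressed changes.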
